A study of Mus musculus with 614 samples.

Results

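The 82 genes described here are the nuclear genes of oxidative phosphorylation, taken by symbol from the 43280 symbols of a single-cell expression table: 37 of complex I (symbols Ndufa, Ndufb, Ndufc, Ndufs and Ndufv followed by a number), 4 of complex II (Sdha to Sdhd), 8 of complex III (Uqcr), 18 of complex IV (Cox4 to Cox8) and 15 of complex V (Atp5). The choice used no measured value, and 3 Atp5l pseudogene rows were left out of the set. The cells came from untreated C57BL/6J mice of 7 to 10 weeks and were sorted by surface proteins, captured on a microfluidic chip, and sequenced after oligo-dT primed full-length amplification, 1 library per cell. The 12 sort gates held 598 cells from bone marrow (11 gates) and 16 cells from blood (1 gate).

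Strain, age range and lack of treatment were shared by all gates, which differed by surface phenotype and, for 1 gate, by tissue. Plasmacytoid dendritic cells (pDC, 27 cells) were Lin- B220+ SiglecH+. The 4 marrow gates of dendritic cell precursors (pre-DC) were Lin- CD11c+ MHCII- Flt3+ CD172α- B220- and were divided by 2 further surface proteins: 70 cells carried SiglecH without Ly6C (SiglecH+Ly6C-), 70 carried neither protein (SiglecH-Ly6C-), 45 carried both (SiglecH+Ly6C+) and 68 carried Ly6C without SiglecH (SiglecH-Ly6C+). Blood pre-DC (16 cells) formed the only gate outside the marrow. Common dendritic cell progenitors (CDP, 58 cells) were Lin- CD11c- MHCII- Flt3+ with intermediate c-Kit and neither CD115 nor IL7R. Pre-pro-B cells (30) were Lin- Flt3+ B220+ CD43+ CD93+ CXCR4+ IL7R+ with low CD117 and CD24. Common lymphoid progenitors (CLP, 48 cells) were Lin- CD127+ CD34+ Flt3+ Thy-1- with low c-Kit and Sca-1. Common monocyte progenitors (cMoP, 66 cells) were Lin- CD11b- CD115+ c-Kit+ Flt3- with high Ly6C. Granulocyte-monocyte progenitors (GMP, 51 cells) were Lin- c-Kit+ CD34+ Sca-1- with high CD16/32, and lymphoid-primed multipotent progenitors (LMPP, 65 cells) were Lin- c-Kit+ CD34+ Sca-1+ CD127- with intermediate CD16/32. No animal, pool or culture is named for any cell, so every gate is a single sample, no test between gates was made, and each SD or quartile below describes cells.

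Oxidative phosphorylation couples the oxidation of NADH and succinate to the synthesis of ATP in the inner mitochondrial membrane. Complexes I and II pass electrons to ubiquinone, complex III passes them on to cytochrome c, complex IV reduces oxygen, and complex V makes ATP from the proton gradient that complexes I, III and IV build. Most subunits are nuclear-encoded, while the core of complexes I, III, IV and V includes subunits made from mitochondrial DNA. Several complex IV subunits exist as paired isoforms, of which the heart and skeletal muscle isoform of subunit VIa is Cox6a2 and the general isoform is Cox6a1. In the marrow, progenitors leave a glycolytic stem cell state and enlarge their mitochondrial capacity as they divide and mature.

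The level of a gene is given as TPM, transcripts per 1000000 transcripts of the cell, which is scaled by transcript length, so levels of different genes are comparable within a cell. TPM keep no read count, so depth is unknown. A count of detected genes (TPM of 1 or above, at most 9977 in a cell) stands in for depth, and its gate median was lowest in CLP at 3280 and highest in cMoP at 6671. Library numbers form 9 runs. The pre-pro-B, CLP and GMP cells fill 1 of these runs and no other gate is in it, CDP share a run with 24 of the 27 pDC, and 2 runs hold the SiglecH+Ly6C- pre-DC. Markers of the sorts were present: Siglech was in 100% of pDC, Mpo in 100% of GMP, and Ly6c2 in 100% and Csf1r in 84.8% of cMoP. All 5 genes of the mature neutrophil list were at 0 in pDC and pre-pro-B cells. In the pre-pro-B gate the 5 B-lineage genes were near 0 (median sum 1.34 TPM, with Vpreb1 and Igll1 at 0 in every cell and Ebf1 in 6.67% of cells), while all 8 pDC markers were present in most cells, with a median sum of 23059 TPM, against 11034 TPM in pDC. The gate is called by its sort name here.

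The 300-base promoter window of Cox6a1, the general isoform set against Cox6a2 below, and of Atp5b, the catalytic beta subunit of complex V and the most abundant member of that complex, are shown to set a member whose window holds motifs of known respiratory chain regulators beside one whose window holds none of those searched. The sequences are RefSeq's on GRCm38.p6, 5′ to 3′ on the gene's strand, from 250 bases before to 50 after the start. They lie at chr5:115348909-115349208 on the minus strand for Cox6a1 and at chr10:128083057-128083356 on the plus strand for Atp5b, and capitals mark motif matches.
Cox6a1: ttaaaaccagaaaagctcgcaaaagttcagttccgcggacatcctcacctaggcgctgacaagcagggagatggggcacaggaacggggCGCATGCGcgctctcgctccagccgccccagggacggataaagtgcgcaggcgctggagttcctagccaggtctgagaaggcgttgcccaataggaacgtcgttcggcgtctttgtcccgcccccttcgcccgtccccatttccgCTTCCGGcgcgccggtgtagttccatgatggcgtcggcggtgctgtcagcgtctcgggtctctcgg
Atp5b: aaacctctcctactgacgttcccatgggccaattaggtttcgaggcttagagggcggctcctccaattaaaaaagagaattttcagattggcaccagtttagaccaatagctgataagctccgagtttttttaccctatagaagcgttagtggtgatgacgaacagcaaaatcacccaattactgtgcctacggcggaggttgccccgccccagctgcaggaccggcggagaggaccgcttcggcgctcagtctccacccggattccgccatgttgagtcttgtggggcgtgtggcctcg

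Both capitalised stretches of Cox6a1 belong to factors known for respiratory chain genes: CGCATGCG is the core of the NRF1 site and CTTCCGG is the reverse of CCGGAAG, the Ets site that GABPA binds. RefSeq windows were matched for 67 of the 82 members (66 by symbol and 1 by an older symbol), and 6 motifs were searched on both strands. The NRF1 core was in 13.4% of the member genes (9 of 67) and in 2.07% of all 27025 genes with a window. CCGGAAG was in 23.9% of member genes, against 9.93% of all genes. AAGATGGC, the YY1 core, was in 14.9% against 3.19%, and AAGGTCA, the half-site of estrogen-related receptors, was in 11.9% against 5.38%. CAGGTG, an E-box bound by E proteins, was in 20.9% against 22.6%, and TATAAA was in 10.4% against 15.7%. These are counts of letters in windows, and binding was not measured.

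Nearly all members were expressed in this collection. Of the 82, 74 reached 1 TPM in 50% of all cells or over, 47 in 80% or over and 23 in 90% or over. The isoforms Cox7b2, Cox8b, Cox8c and Ndufa4l2 were listed at 0 in every cell. Of the remaining 78, the highest gate mean was in GMP for 32, in pre-pro-B cells for 20, in CLP for 8 and in another gate for 18. GMP, pre-pro-B cells and CLP share a library number run, and the same count over all genes was not made. The CLP count includes Ndufa11, whose mean there was set by a single cell.

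Summed over the 82 genes, the level fell into a high range in 3 gates and a lower range in the other 9. The median cell held 45106 TPM in pre-pro-B cells (quartiles 42976 to 50793), 44724 TPM in GMP (42687 to 48638) and 39704 TPM in CLP (34273 to 48099). These correspond to 4.51%, 4.47% and 3.97% of all transcripts in the cell. The cMoP came next at 24845 TPM (21642 to 26309), followed by SiglecH+Ly6C+ pre-DC at 22831, SiglecH+Ly6C- pre-DC at 22515, SiglecH-Ly6C+ pre-DC at 22023, SiglecH-Ly6C- pre-DC at 21478 and LMPP at 21292. The lowest medians were those of CDP at 18038 TPM (14711 to 21029), blood pre-DC at 17333 (11829 to 18691) and pDC at 17242 (14200 to 23794). Quartiles of neighbouring gates overlapped everywhere in this order except between CLP and cMoP. The coefficient of variation over cells was smallest in GMP at 10.8% and largest in blood pre-DC at 51.5%, where the lowest cell held 99.1 TPM. Leaving out the 2 blood cells with under 2000 genes gave a blood median of 17668 TPM. The pDC position depends on scaling: with size factors in place of TPM as deposited the pDC median was 25814 TPM, the fourth highest of the 12.

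**Figure D1:**
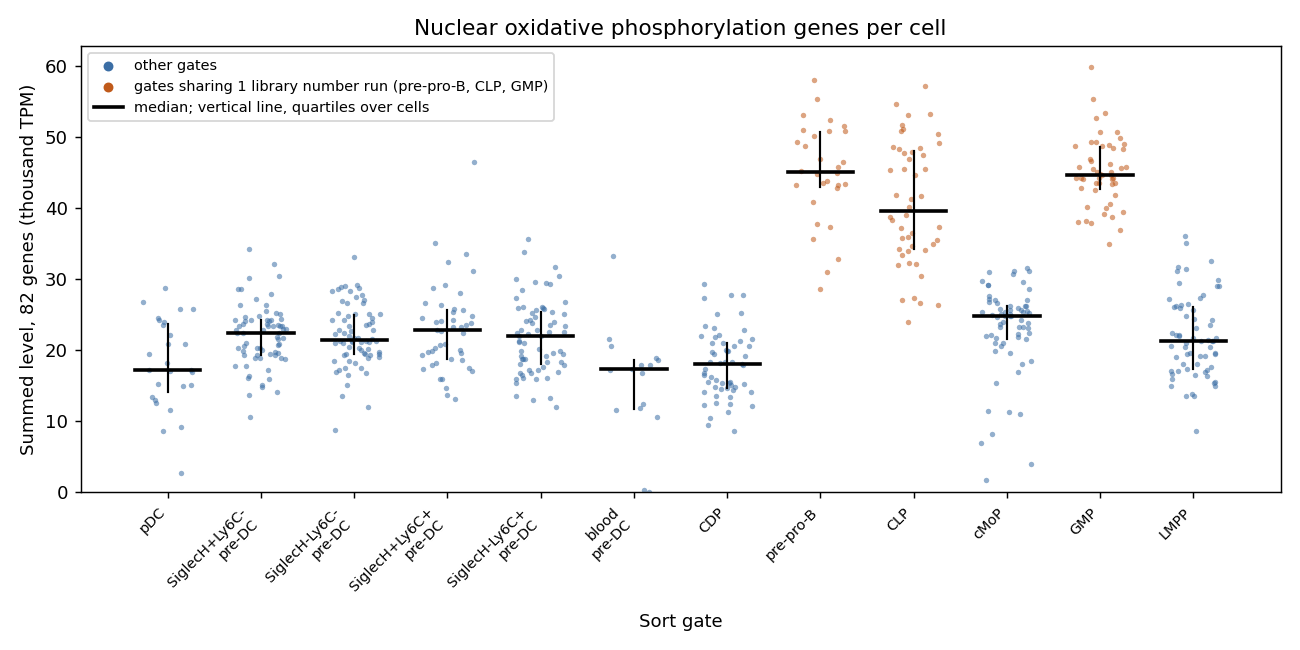
Summed level of the 82 nuclear genes in each cell (points, in units of 1000 TPM) by sort gate, with the gate median as a bar and the quartiles over cells as a line. The pre-pro-B, CLP and GMP cells, which share 1 library number run (orange), have medians of 39704 TPM or more, and the 9 other gates (blue) have medians of 24845 TPM or less.

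The 3 high gates are the 3 gates of a single library number run, and the run cannot be told apart from the gates here. Set against the mean of the 9 other gates on the log2(TPM + 1) scale, 70 of 77 members were above 0 in the run, 38 by 1 or more, and the median member differed by 0.99. Over all 11701 genes the same median was -0.23, and 19.3% of genes were higher by 1 or more. As a description, Spearman's rho of transcript length and difference was -0.35 over members and -0.17 over all genes, but the fall with length was not steady from bin to bin. From 1000 to 1500 nt the median was 0.70 for 14 members and 0.58 for all genes, and from 1500 to 2000 nt it was 0.89 for 10 members and 0.53 for all genes. Among genes with a longest transcript of 500 to 1000 nt the median was 1.27 for the 36 members and 0.13 for all genes, from 2000 to 3000 nt it was 0.33 for 9 members and 0.20 for all genes, and from 3000 to 5000 nt it was 1.48 for 6 members and -0.26 for all genes. The 1 member of 5000 nt or more was at 0.92, against a median of -0.79 for all genes of that length, and below 500 nt the median of all 615 genes was -2.88, against 1.89 for the 1 member. The members furthest below 0 were Sdha at -0.72, Uqcrc2 at -0.38 and Ndufs1 at -0.36, and the furthest above 0 besides Cox6a2 were Cox8a at 2.51 and Ndufb2 at 2.28. The part of length or run in the level was not tested. Within 1 gate that is divided between runs the level was alike: the SiglecH+Ly6C- median was 22531.5 TPM in 51 cells of one run and 22499 TPM in 19 cells of the other. Neither of these is the run of the 3 high gates, so the values do not bear on that run.

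The 13 respiratory chain genes of mitochondrial DNA did not follow the nuclear ones. Their summed median was highest in pDC, at 59390 TPM, where the nuclear sum was lowest, and lowest in pre-pro-B cells, at 26631 TPM, where the nuclear sum was highest. The median ratio of mitochondrial to nuclear transcripts was 3.19 in pDC, 2.74 in CDP and in blood pre-DC, 2.07 in LMPP and between 1.51 and 1.85 in cMoP and the 4 marrow pre-DC gates. It was 1.02 in CLP, 0.737 in GMP and 0.513 in pre-pro-B cells. As a description over the 12 gate medians, Spearman's rho between the nuclear and mitochondrial sums was -0.69, and over the 9 gates outside the shared run it was -0.58. Both sums are shares of one fixed total. Rescaling without the mitochondrial genes left pDC among the lowest gates in the nuclear sum, at 19178 TPM, the eleventh of 12. With size factors the pDC nuclear median was 25814 TPM, the fourth highest, so the place of pDC in this opposition depends on scaling.

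**Figure D2:**
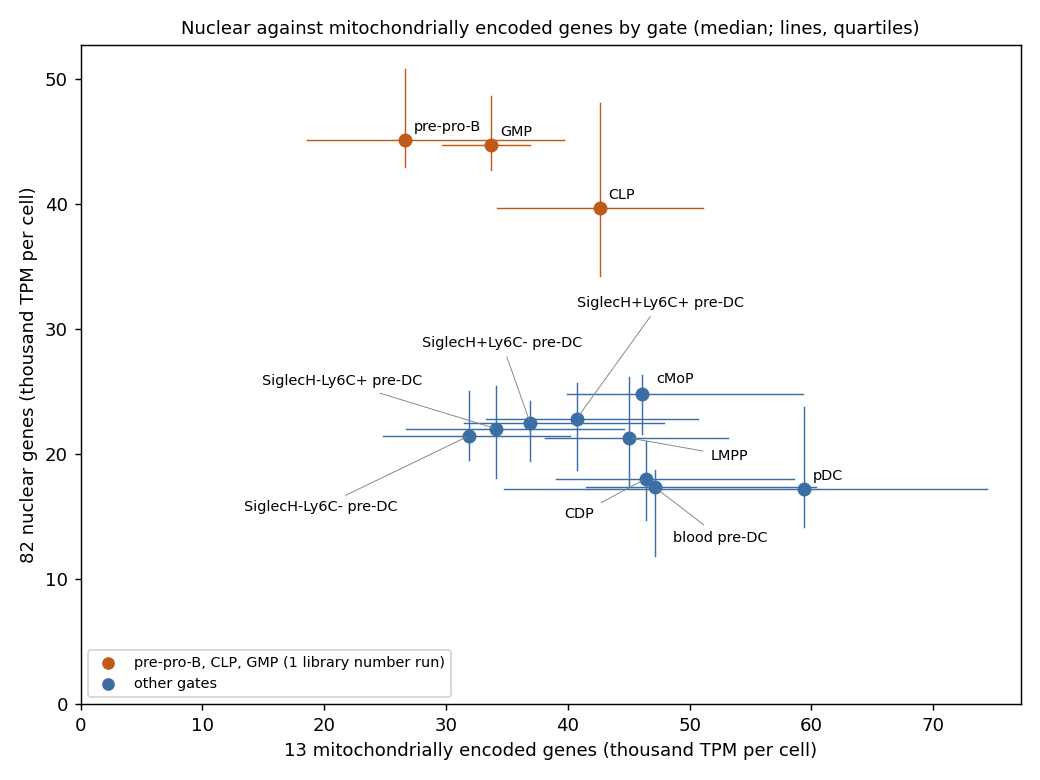
Median summed TPM of the 82 nuclear genes (vertical axis) against that of 13 mitochondrially encoded genes (horizontal axis), 1 point per gate with quartiles over cells as lines. The pDC point lies lowest and furthest right (17242 and 59390 TPM), and the pre-pro-B point highest and furthest left (45106 and 26631 TPM).

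Complex I, the NADH dehydrogenase, was led by Ndufa4, a subunit now known to sit in complex IV although its symbol places it here, with a mean of 824 TPM over the 12 gates. Ndufa3 at 544 TPM and Ndufa1 at 537 TPM, small accessory subunits, followed, and the complex median was 231 TPM. Ndufa4 averaged 1928 ± 518 TPM in GMP, 1640 ± 1178 TPM in CLP and 1503 ± 1278 TPM in LMPP (SD over cells), so that LMPP, in a run of their own, stood near the high gates for this member alone among the 3 leaders: Ndufa3 was 477.1 ± 374 TPM and Ndufa1 325 ± 447.8 TPM in LMPP. Ndufb4, an accessory subunit, had the lowest mean of the expressed complex I members at 48.8 TPM. Ndufa11, another accessory subunit, had its highest mean in CLP, 338 TPM, but 1 CLP cell at 13885 TPM set it, and without that cell the CLP mean was 50.1 TPM, below the pre-pro-B mean of 82.1 TPM.

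Complex II, succinate dehydrogenase, was the smallest group and was missed altogether in some cells. Sdhb, the iron-sulfur subunit, averaged 340 TPM, Sdhd and Sdhc, the membrane anchors, 256 and 115 TPM, and Sdha, the flavoprotein, 175 TPM. Its summed median was 231 TPM in pDC and 118 TPM in blood pre-DC, against 1349 TPM in GMP and 1021.8 TPM in cMoP. All 4 genes were under 1 TPM in 7.41% of pDC and in 18.8% of blood pre-DC. Sdhc had its lowest gate mean in pDC, at 19.7 ± 82.3 TPM, and between 93.3 and 159 TPM in the other 11 gates.

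Complex III was carried by the small subunits Uqcrb (628 TPM), Uqcr11 (608 TPM) and Uqcrh (556 TPM). The core protein gene Uqcrc2 and the Rieske iron-sulfur protein gene Uqcrfs1 were lowest, at 196 and 132 TPM. Complex IV was led by Cox4i1, at 980.5 TPM, which was detected in 608 cells, followed by Cox6a1 at 850.7 TPM and Cox6a2 at 706 TPM. Complex V was led by Atp5b at 941.2 TPM, Atp5c1, the central stalk subunit gamma, at 766 TPM and Atp5h, a peripheral stalk subunit, at 733 TPM. Its lowest members were Atp5k at 198 TPM and Atp5l at 134 TPM, both genes of small membrane subunits, and reads of Atp5l may be shared with its pseudogenes.

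Of the nuclear sum, complex I took 31.4% (SiglecH+Ly6C- pre-DC) to 38.1% (LMPP), complex III 10.4% (pDC) to 14.01% (GMP) and complex V 23.3% (pDC) to 30.02% (SiglecH+Ly6C+ pre-DC). Complex IV ranged from 19.1% in SiglecH-Ly6C+ pre-DC to 30.5% in pDC and 29.8% in pre-pro-B cells. Cox6a2 alone made up 8.39% of the nuclear sum in pDC, 8.57% in pre-pro-B cells, 4.08% in SiglecH+Ly6C- pre-DC and 3.66% in CLP. Within gates the complexes varied together only loosely from cell to cell, in shares of a fixed total and with dropouts of single genes: as a description, the gate median of Spearman's rho was 0.31 for complexes I and III, 0.32 for I and IV, 0.30 for I and V, and 0.34 for IV and V.

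**Figure D3:**
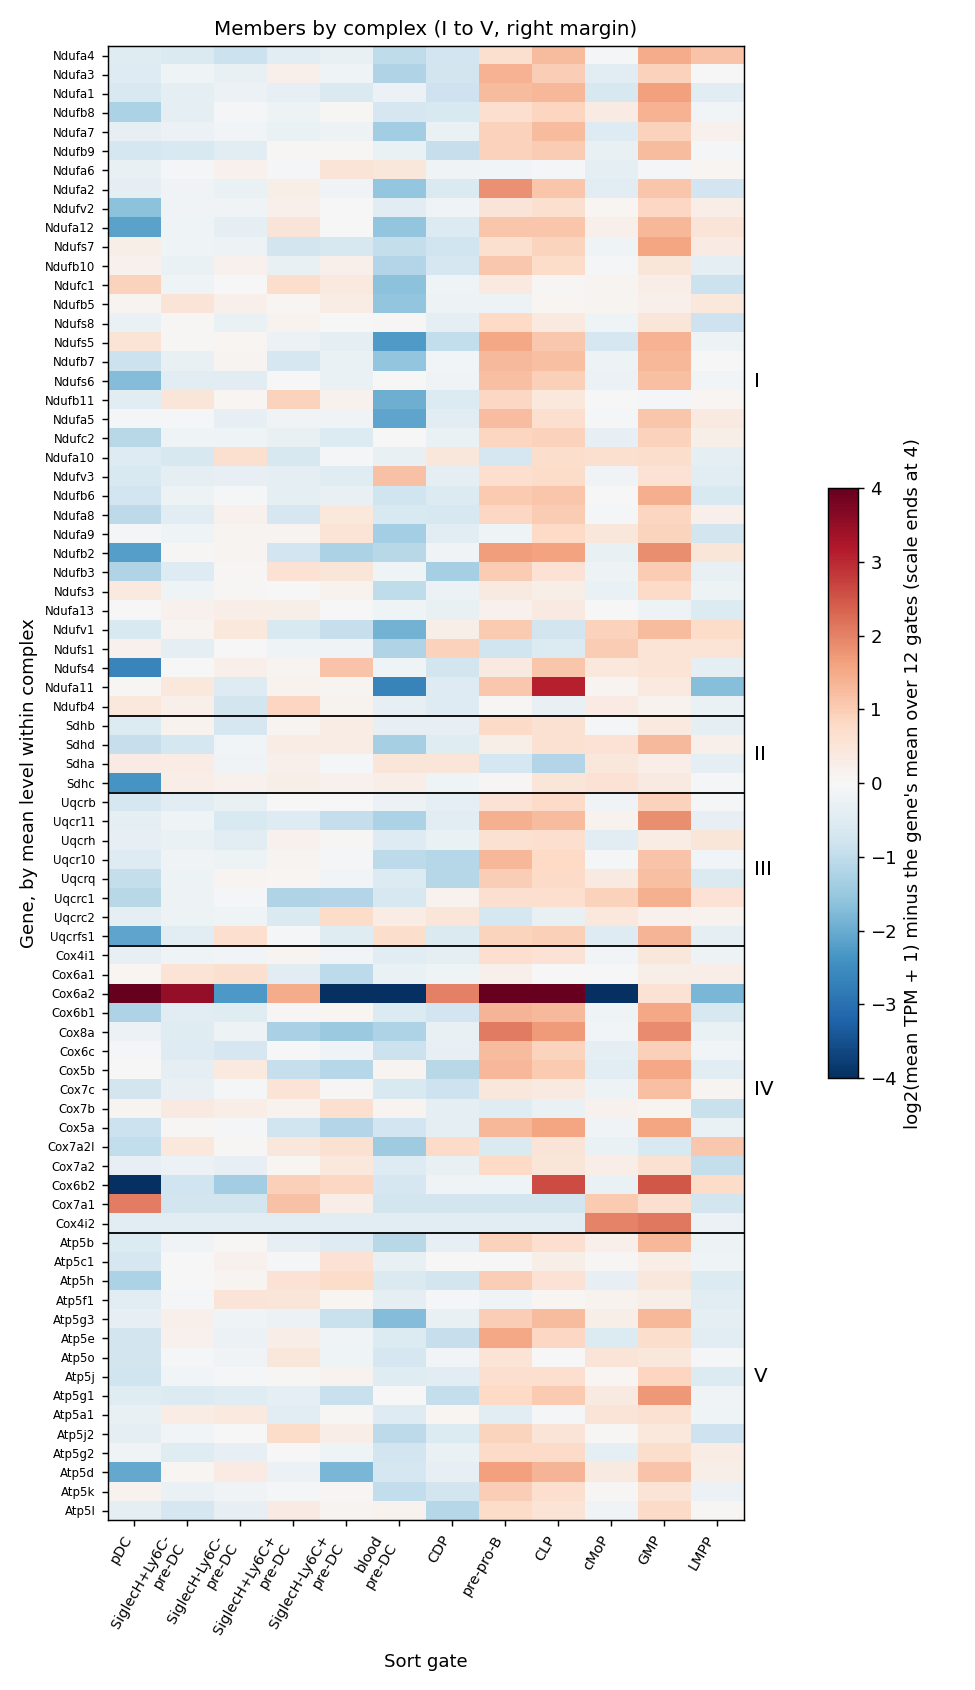
Of the 78 members with a value above 0, 77 are shown (rows, grouped by complex from I to V), in 12 sort gates (columns). Colour is log2(mean TPM + 1) minus the gene's own mean over gates, and the scale ends at 4 in each direction. Most rows are above their own mean in pre-pro-B, CLP and GMP, and Cox6a2 is the row with the strongest contrast, from 3860 TPM in pre-pro-B cells to a listed 0 in SiglecH-Ly6C+ and blood pre-DC.

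Members differed widely in how even they were over gates. Among members with a mean over 50 TPM the ratio of the highest to the lowest gate mean was 1.86 for Ndufa13, 1.89 for Ndufa6, 1.96 for Atp5f1 and 2.14 for Cox4i1. It was 12.01 for Cox8a, with 1718 ± 771.7 TPM in pre-pro-B cells and 143 TPM in SiglecH-Ly6C+ pre-DC. Atp5d, the delta subunit of the ATP synthase rotor, had a ratio of 13.2, with 538 ± 319.4 TPM in pre-pro-B cells and 40.9 ± 78.4 TPM in pDC. Ndufb2 had a ratio of 17.6, with 357 ± 168.97 TPM in GMP and 20.2 ± 49.4 TPM in pDC. For Cox8a, Atp5d and Ndufb2 the high gate is in the run of pre-pro-B cells, CLP and GMP and the low gate is in another. Ndufs4, an accessory subunit of complex I, was otherwise, with a ratio of 15.1 between 124 ± 238.5 TPM in SiglecH-Ly6C+ pre-DC and 8.16 ± 30.5 TPM in pDC.

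Of the paired isoforms, most tissue-restricted partners were silent or nearly so. Cox4i2, known from lung, reached 1 TPM in 21 cells and 128 TPM at most, against 608 cells for Cox4i1. Cox7a1, the muscle partner of Cox7a2, was in 10 cells, while Cox7a2 was in 529 and Cox7a2l in 511. Cox6b2, known from testis, was in 149 cells and averaged 107 TPM in CLP and 98.6 TPM in GMP, with 66.7% of GMP and 39.6% of CLP at 1 TPM or more, against 0 of 27 pDC, which allows a share of up to 11.1%. Its partner Cox6b1 averaged 1470 TPM in GMP. The ATP synthase c subunit genes Atp5g1, Atp5g2 and Atp5g3, which encode the same mature protein, averaged 445.2, 223 and 521 TPM. Among the lung, muscle and testis isoforms, Cox6a2 alone had a gate mean above that of its general partner.

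Cox6a2, on GRCm38 at chr7:128205435-128206387 (minus strand, GENCODE M21), divided the gates. Each pre-pro-B cell carried it, at 477.4 TPM in the lowest, 3669 in the median and 9719 TPM in the highest cell. Median pDC held 1323 TPM (range 0 to 4592), CLP 1308 TPM (0 to 4832) and SiglecH+Ly6C- pre-DC 680 TPM (0 to 3768). These 3 gates overlap over most of their range. In CDP the median was 119 TPM (0 to 1656), in GMP 5.69 TPM (0 to 3981.5) and in SiglecH+Ly6C+ pre-DC 2.60 TPM (0 to 2556). The median was 0 in SiglecH-Ly6C- pre-DC (highest cell 1011.1 TPM), LMPP (579 TPM) and cMoP (83.3 TPM). No SiglecH-Ly6C+ or blood pre-DC held it: 0 of 68 and 0 of 16 cells, which allow shares of up to 4.41% and 18.8%.

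Shares of cells at 100 TPM or more were 100% in pre-pro-B cells (exact Clopper-Pearson 95% interval 88.4 to 100), 92.6% in pDC (75.7 to 99.1), 79.2% in CLP (65.01 to 89.5), 65.7% in SiglecH+Ly6C- pre-DC (53.4 to 76.7), 53.4% in CDP (39.9 to 66.7) and 22.2% in SiglecH+Ly6C+ pre-DC (11.2 to 37.1). LMPP had 6.15%, GMP 3.92%, SiglecH-Ly6C- pre-DC 1.43% and cMoP 0 of 66 cells, which allows up to 4.55%. These intervals and limits cover counting error only. At 1 TPM the GMP share was 78.4%, and 38 of those 40 GMP cells lay below 100 TPM. GMP share their run with pre-pro-B cells and CLP, while LMPP and cMoP, in runs of their own, had 7.69% and 4.55% at 1 TPM. SiglecH+Ly6C+ pre-DC had 55.6% at 1 TPM. Siglech, a pDC marker, was likewise at 1 TPM or more in 72.5% of GMP, with a median of 2.98 TPM, against 6.06% of cMoP. The part of the run in these low values was not tested. Both GMP cells at 100 TPM or more of Cox6a2 also held 100 TPM or more of Siglech and of Ly6d, against their label, and these 2 cells carried 93.0% of all Cox6a2 in the gate.

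Cox6a1, at chr5:115345642-115348981 (minus strand), varied far less. Its gate medians ran from 244 TPM in SiglecH-Ly6C+ pre-DC (range 0 to 2071) and 333 TPM in SiglecH+Ly6C+ pre-DC (0 to 2327) through 645.2 TPM in CDP, 781.5 in blood pre-DC, 781.9 in cMoP, 830.6 in LMPP, 835.01 in CLP, 894.7 in pDC, 958.99 in GMP and 986.3 TPM in pre-pro-B cells to 1127 TPM in SiglecH+Ly6C- pre-DC (0 to 3893.1) and 1288 TPM in SiglecH-Ly6C- pre-DC (0 to 3867). Both Ly6C+ pre-DC gates were lowest, with upper quartiles of 977.95 TPM (SiglecH+) and 565 TPM (SiglecH-), and these 2 gates come from different runs. Neighbours elsewhere in the order overlapped within their quartiles.

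By summed TPM Cox6a2 was 80.3% of the Cox6a pair in pre-pro-B cells, 64.5% in CLP, 64.01% in pDC, 43.1% in SiglecH+Ly6C- pre-DC, 30.6% in CDP, 27.1% in SiglecH+Ly6C+ pre-DC and 10.96% in GMP, or 0.894% without the 2 GMP cells just described. It was at most 2.13% in the other gates and 0 in SiglecH-Ly6C+ and blood pre-DC. The isoforms were found together in the same cells: both were at 100 TPM or more in 29 of 30 pre-pro-B cells, 20 of 27 pDC, 35 of 48 CLP, 42 of 70 SiglecH+Ly6C- pre-DC and 26 of 58 CDP. Cox6a2 stood above Cox6a1 in 93.3% of pre-pro-B cells, 66.7% of pDC, 56.3% of CLP, 41.4% of SiglecH+Ly6C- pre-DC and 25.9% of CDP. Of 8 other muscle genes, Mb and Myh6 were listed at 0 in every cell and Acta1, Actc1, Myh7, Tnni3, Tnnt2 and Ckm were each in 6 to 14 cells, with 107 TPM of Ckm the highest value.

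**Figure D4:**
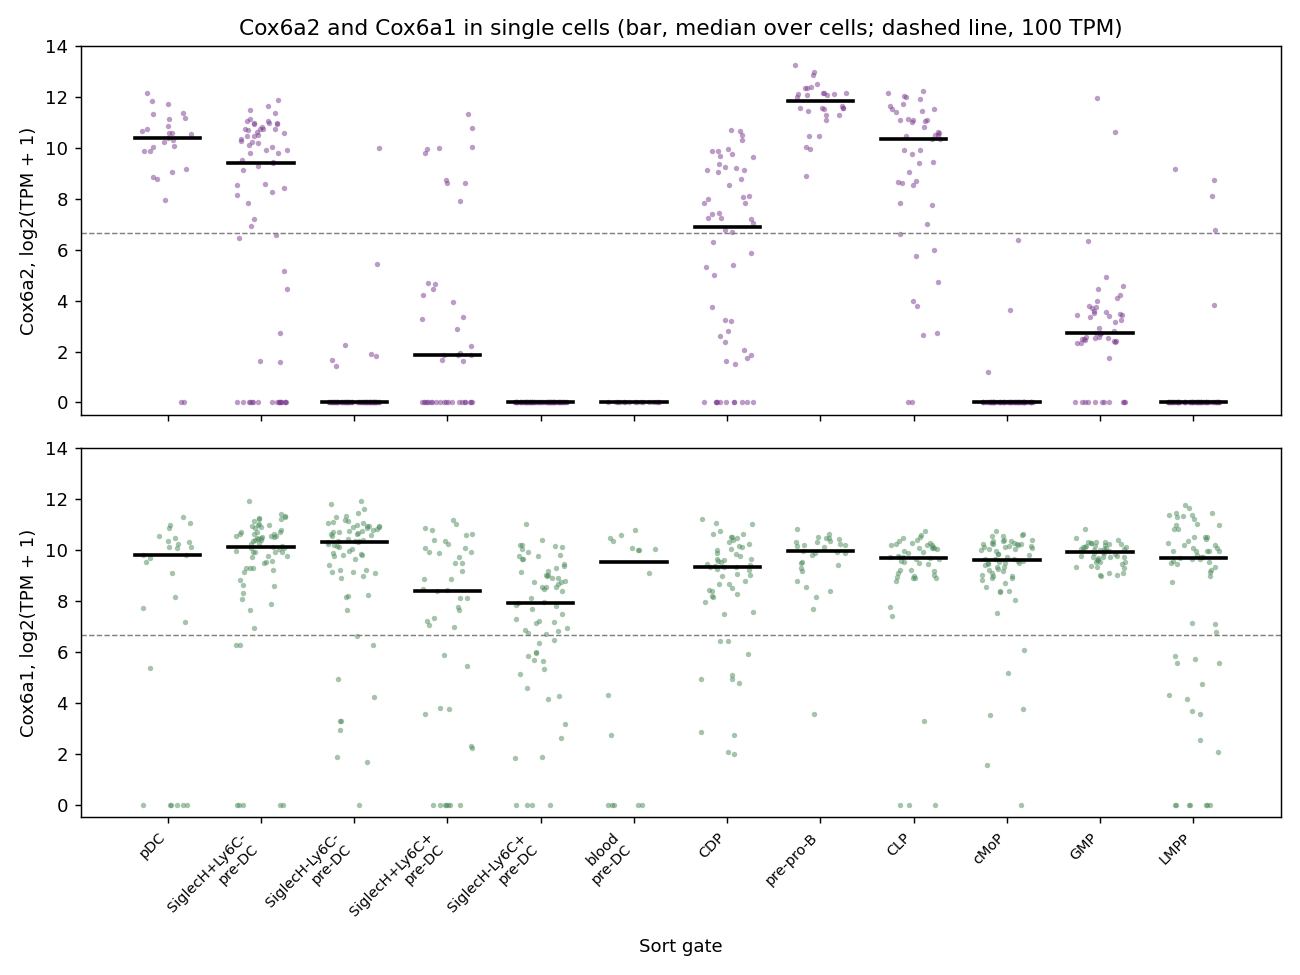
Cox6a2 (top) and Cox6a1 (bottom) in every cell on the log2(TPM + 1) scale, by sort gate, with the median over cells as a bar and 100 TPM as a dashed line. Cox6a2 is above the line in all 30 pre-pro-B cells and in none of the cMoP, SiglecH-Ly6C+ or blood pre-DC, while Cox6a1 is above it in 56.3% or more of the cells of every gate.

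The gate with cells in both runs gave different Cox6a2 levels in them: the SiglecH+Ly6C- median was 964.8 TPM, with 70.6% of cells at 100 TPM or more, in the 51 cells of the run shared with SiglecH+Ly6C+ pre-DC, and 120 TPM, with 52.6%, in the 19 cells of the run shared with SiglecH-Ly6C- pre-DC. In both runs it was above the gate it shared the run with. The 24 and 3 pDC of 2 runs had medians of 1294 and 1507 TPM.

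Over the 12 gate means of log2(TPM + 1), 12659 genes were compared with Cox6a2. The most alike were Ly6d, a surface protein of lymphoid progenitors, with Pearson's r of 0.97, and Blnk, a B cell receptor adaptor, and Il7r, the interleukin-7 receptor that some of the sorts used, each with 0.96. Fads3, Cd72, Smim5, Sla2, Gbp8, Snn and Calcoco1 followed, between 0.92 and 0.96. Siglech, part of several sorts, ranked thirtieth at 0.86. Among 76 members the nearest was Ndufa11, at 0.57 and rank 412, then Atp5e at 0.52 and Cox4i1 at 0.49. Cox6a1 stood at 0.33 and Ndufa6 was lowest at -0.65. These are descriptions of 12 points, 3 of which share a run. Within cells, Ly6d was also at 100 TPM or more in 30 of 30 Cox6a2-high pre-pro-B cells, 44 of 46 such SiglecH+Ly6C- pre-DC and 23 of 25 pDC. The counts were 26 of 38 in CLP, 12 of 31 in CDP and 8 of 10 in SiglecH+Ly6C+ pre-DC. Over all cells of these gates, in the same order, Ly6d reached 100 TPM in 30 of 30, 62 of 70, 25 of 27, 29 of 48, 17 of 58 and 13 of 45. In pre-pro-B cells and pDC the share was thus about that of the whole gate.

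For the 7 comparisons of gates below, a member is called higher or lower where the gate means of log2(TPM + 1) differ by 1 or more, a fixed size and not a test. Genes entered where 20% of the cells of one or the other gate reached 1 TPM. A mean of logs moves with the share of cells in which a gene is detected as well as with its amount. Where the log2 of the mean TPM, which depends on amount, gives other counts, these follow. Comparisons that share a gate (GMP, CLP, pDC or SiglecH+Ly6C- pre-DC) are not independent. Except in the comparison of cMoP with GMP, where 26 of 77 members differed by more than 1 pooled SD over cells, at most 5 members per comparison did. This count was not made over all genes, so it has no background, and cMoP and GMP are in different runs.

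**Figure D5:**
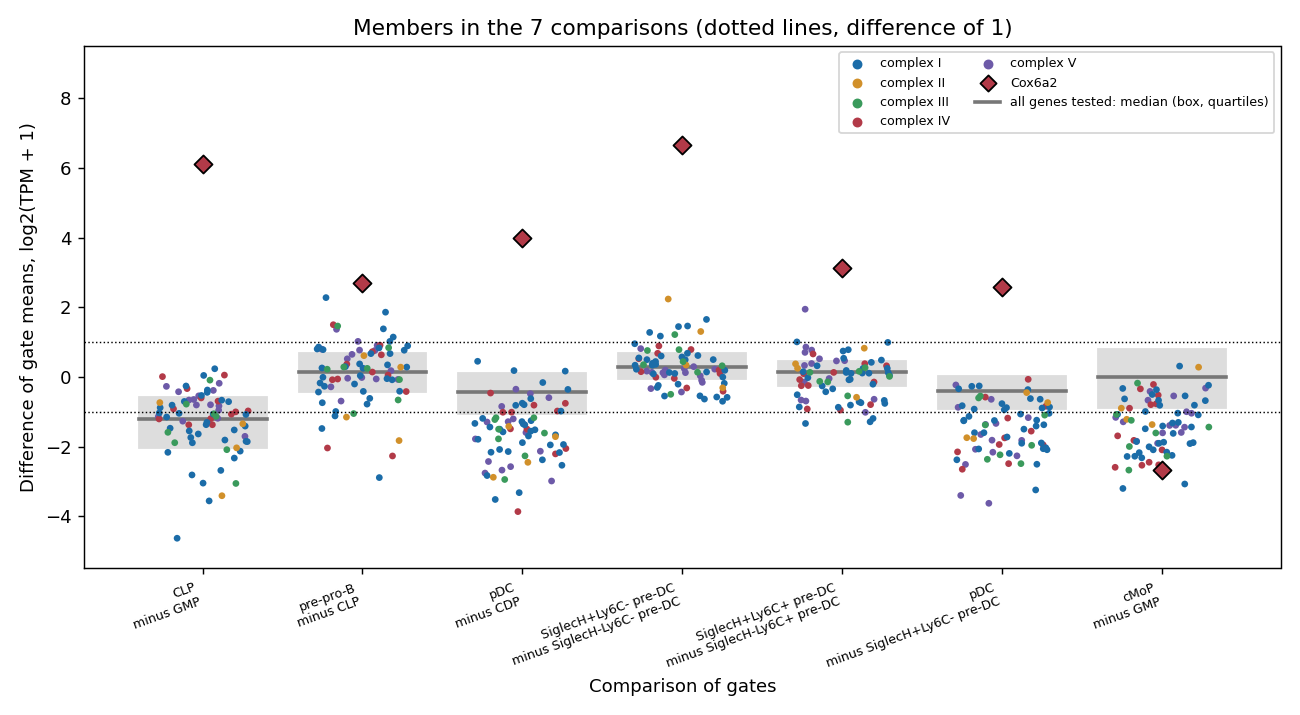
Difference of gate means of log2(TPM + 1) for each member (points, coloured by complex) in 7 comparisons, with the median and quartiles of all genes tested as a grey line and box, and dotted lines at a difference of 1. Cox6a2 (diamond) is the highest member in 6 comparisons, in 1 of which it is listed at 0 in every SiglecH-Ly6C+ pre-DC, and is at -2.69 in cMoP minus GMP, where the member median is -1.39 and that of all genes -0.00073.

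Lymphoid and myeloid progenitors of 1 run were compared first. Cox6a2 was the single member called higher in CLP than in GMP, by 6.12 (8.98 ± 3.19 in CLP and 2.86 ± 2.32 in GMP, mean ± SD over 48 and 51 cells). Of 77 members, 1 was higher and 44 lower in CLP. Over all 8694 genes, 2.52% were higher and 58.7% lower, so the share of lower members (57.1%) was close to the background. The median member was at -1.07 and the median gene at -1.22. The lowest were Ndufv1 at -4.63 and Ndufs1 at -3.56, which carry the NADH and iron-sulfur sites of complex I, Sdha at -3.41, Uqcrc2 at -3.06 and Ndufs3 at -3.05. Ndufv1 was detected in 43.8% of CLP and 92.2% of GMP. Relative to the median of all genes 7 members were higher and 8 lower, where 14.9% of all genes were higher and 20.3% lower. On the log2 of the mean TPM 3 members were higher and 4 lower, where 10.7% of all genes were higher and 21.6% lower. Gate medians of genes per cell were 3280 in CLP and 5792 in GMP, and the ratio of summed medians was 0.888. The highest after Cox6a2 were Ndufa13 at 0.23, Cox4i1 at 0.05, Ndufa7 at 0.04 and Cox7a2l at 0.01. Cox4i1 averaged 1405 TPM in CLP and 1307 TPM in GMP.

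Pre-pro-B cells were set against CLP, also within that run. Cox6a2 again led, by 2.68 (11.66 ± 0.95 in pre-pro-B cells and 8.98 ± 3.19 in CLP). Of 76 members 10 were higher and 8 lower, where the background was 15.5% higher and 10% lower, so neither share stood out. Ndufv1 was higher by 2.27, Cox7a2 by 1.496 and Uqcr10, a small complex III subunit, by 1.46. Ndufa10 was at -2.89, Cox6b2 at -2.27, Cox7a2l at -2.04, Sdhd at -1.83 and Ndufa9 at -1.48. With the log2 of the mean TPM 2 members were higher and 4 lower, relative to the median of all genes 7 and 9, and with a pseudocount of 10 they were 4 and 5. Of all genes 16.2% were higher and 14.9% lower on the log2 of the mean TPM. Relative to the median these shares were 12.4% and 12.9%, and with a pseudocount of 10 they were 5.71% and 3.35%. Median sums, with overlapping quartiles, were 45106 TPM for pre-pro-B cells and 39704 TPM for CLP. The 5 division genes of the marker list summed to a median of 7726 TPM in pre-pro-B cells and 3105 TPM in CLP, and the part of division was not tested.

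In pDC compared with CDP, Cox6a2 was higher by 3.996 (9.60 ± 2.94 in 27 pDC and 5.61 ± 3.77 in 58 CDP). It was the single member called higher out of 75, and 56 were lower. Over all 9537 genes 4.77% were higher and 27.1% lower, so 74.7% of members were lower against 27.1% of genes, and the medians were -1.50 for members and -0.44 for all genes. All 8 genes of complex III and all 4 of complex II were lower, as were 26 of 36 of complex I, 7 of 12 of complex IV and 11 of 15 of complex V. The furthest were Cox7a2l at -3.87, Ndufs6 at -3.52, Ndufv2 at -3.32, Atp5f1, a peripheral stalk subunit of the ATP synthase, at -2.99 and Uqcrc1 at -2.95. Ndufs6 was detected in 33.3% of pDC and 79.3% of CDP. The next highest after Cox6a2 were Ndufa11 at 0.45, Ndufs5 at 0.18, Ndufs7 at 0.16 and Ndufa1 at -0.16. Members detected per cell were 49 in pDC and 64 in CDP. The summed median was 17242 TPM in pDC and 18038 TPM in CDP as deposited, and the order turned with size factors, at 25814 TPM in pDC and 16814.5 TPM in CDP. On the log2 of the mean TPM 5 members were higher and 10 lower, where 15.3% of all genes were higher and 29.7% lower. Genes per cell were 4398 in pDC and 5208 in CDP. Size factors moved the median of all genes by 0.23, and 45 members were then lower, as were 20.5% of all genes. Division genes summed to a median of 21.7 TPM in pDC and 1539 TPM in CDP, and their part in the result was not tested.

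The pDC were also set against SiglecH+Ly6C- pre-DC, which come from different runs and share the pDC cells with the comparison above. Cox6a2 was higher by 2.58 (9.60 ± 2.94 in pDC and 7.02 ± 4.52 in SiglecH+Ly6C- pre-DC). Of 75 members 1 was higher and 51 lower, with 2.89% of all genes higher and 21.7% lower, and medians of -1.38 for members and -0.41 for all genes. Atp5h at -3.63, Atp5d at -3.40, Ndufb11, an X-linked accessory subunit, at -3.25, Cox7a2l at -2.65 and Atp5f1 at -2.51 were lowest. Atp5h was in 62.96% of pDC and 95.7% of SiglecH+Ly6C- pre-DC. After Cox6a2 the highest were Cox6c at -0.07, Atp5g2 at -0.23, Ndufa4 at -0.26 and Ndufa11 at -0.27. On the log2 of the mean TPM 1 member was higher and 10 were lower, where 11.68% of all genes were higher and 29.2% lower. With size factors, which moved the median of all genes by 0.18, 43 members were lower, as were 16.2% of all genes. The summed medians then changed order, at 25814 TPM in pDC and 23086 TPM in SiglecH+Ly6C- pre-DC, against 17242 and 22515 TPM as deposited.

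Among Ly6C- pre-DC, SiglecH+ cells were compared with SiglecH- cells. Cox6a2 was the outstanding member, higher by 6.67 (7.02 ± 4.52 in SiglecH+Ly6C- and 0.35 ± 1.41 in SiglecH-Ly6C- pre-DC, 70 cells each). Of 75 members 9 were higher and 0 lower by 1 or more, where 13.7% of all genes were higher and 3.88% lower, so over all cells the share of members called higher was close to the background. Sdhb was at 2.23, Ndufs8, an iron-sulfur subunit, at 1.65, Ndufa11 at 1.46 and Ndufb11 at 1.44. Sdhb was in 84.3% of SiglecH+ and 65.7% of SiglecH- cells, and its mean was 358 TPM in SiglecH+ and 201 TPM in SiglecH- cells. Ndufa9 at -0.70, Ndufa10 at -0.64, Ndufa1 at -0.59, Ndufa8 at -0.58 and Ndufb7 at -0.55 were lowest. With the log2 of the mean TPM only Cox6a2 was called higher and 2 members were lower, where 17.9% of all genes were higher and 10.3% lower. With the 19 SiglecH+ cells of the run that both gates share, 18 of 75 were higher and 3 lower, where 17.5% of 9334 genes were higher and 4.74% lower, and the medians were 0.52 for members and 0.26 for all genes. Genes per cell were 4982.5 in SiglecH+ and 4177 in SiglecH- cells, and the summed level was 22515 TPM in SiglecH+ and 21478 TPM in SiglecH- cells.

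Among Ly6C+ pre-DC, from separate runs, Cox6a2 averaged 3.12 ± 3.82 on the log2(TPM + 1) scale in 45 SiglecH+ cells and was listed at 0 in all 68 SiglecH- cells. Of 76 members 3 were higher and 5 lower, with a background of 6.21% higher and 5.23% lower. Atp5d was at 1.94 (4.69 ± 2.74 in SiglecH+ and 2.75 ± 2.75 in SiglecH- cells), Ndufb4 at 1.003, Ndufb5 at 0.99 and Atp5j2 at 0.85. Ndufa7 at -1.34, Uqcrc2 at -1.30, Ndufb10 at -1.29 and Atp5a1, the alpha subunit of the ATP synthase, at -1.02 were among the lowest. Relative to the median of all genes 2 were higher and 8 lower, and with a pseudocount of 10 the counts were 2 and 0. The matching shares of all genes were 4.36% higher and 6.92% lower relative to the median, and 1.08% and 1.37% with the pseudocount. Summed medians were 22831 TPM in SiglecH+ and 22023 TPM in SiglecH- cells, and with size factors 22411 TPM in SiglecH+ and 22489 TPM in SiglecH- cells.

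The last comparison set cMoP against GMP, which are in separate runs. No member was higher and 52 of 77 were lower in cMoP, where 19.7% of all genes were higher and 22.8% lower. Genes per cell were 6671 in cMoP and 5792 in GMP, and the part of depth was not tested. Some cMoP paired a high mitochondrially encoded sum with a low nuclear sum, the lowest nuclear sum being 1711 TPM beside 258975 TPM. Over cMoP, Spearman's rho of these sums was -0.55. Such cells were kept, and their part in the lower calls was not tested. The median member was at -1.39 and the median gene at -0.00073. Lower calls covered 24 of 36 members of complex I, 2 of 4 of complex II, 7 of 8 of complex III, 8 of 14 of complex IV and 11 of 15 of complex V. Ndufb2 was at -3.20, Ndufs5 at -3.08, Uqcrfs1 at -2.68 and Cox5b, a subunit of complex IV, at -2.60. Cox5b averaged 7.59 ± 2.25 in cMoP and 10.19 ± 0.53 in GMP, and was detected in 93.9% of cMoP and 100% of GMP. Ndufs1 at 0.31, Sdha at 0.28, Uqcrc2 at -0.18, the complex IV subunit Cox7b at -0.22 and Ndufa13 at -0.24 were the highest members. Cox6a2, at -2.69, rests on the low values in GMP given above: 3 of 66 cMoP and 40 of 51 GMP were at 1 TPM or more, and 0 cMoP and 2 GMP at 100 TPM or more. Here the amounts differed too, with 35 members lower on the log2 of the mean TPM and summed medians of 24845 TPM in cMoP and 44724 TPM in GMP. On that log2 scale 29.9% of all genes were higher and 16.98% lower. The cMoP and GMP runs differ, and run and gate cannot be told apart for them.

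Other genes of the same metabolism were compared in the same way. In cMoP minus GMP, where 19.7% of all genes were higher and 22.8% lower and their median was -0.00073, 45 of 77 mitochondrial ribosomal protein genes (median -1.25) and 4 of 13 genes of the tricarboxylic acid cycle (median -0.76) were lower, and 2 and 0 were higher. In the same comparison 6 of 13 mitochondrially encoded genes were higher and 0 lower (median 0.83), led by mt-Nd5 at 1.72 apart from mt-Nd4l, which was listed at 0 in GMP. Among glycolytic genes (median -0.72) 1 of 16 was higher, the hexokinase Hk2 at 4.62, and 6 were lower, Tpi1 at -1.97 the furthest. Electron carriers gave 1 higher (Etfdh at 1.30) and 3 lower of 5, among them cytochrome c1 (Cyc1, a complex III subunit outside the symbol rule) at -2.57 and cytochrome c (Cycs) at -1.90. Assembly factors gave 3 higher and 15 lower of 36, with a median of -0.37.

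In pDC minus CDP, where 27.1% of all genes were lower and their median was -0.44, 39 of 75 mitochondrial ribosomal protein genes (median -1.06), 10 of 13 of the tricarboxylic acid cycle (-1.37) and 10 of 14 of glycolysis (-1.90) were lower. The assembly factors, with 4 of 26 lower and a median of -0.42, were below that share of genes, and 2 of 5 electron carriers were lower. None of these lists had a higher call. Etfb, a carrier of electrons from fatty acid oxidation, was at -4.08, and the glycolytic genes Gpi1 and Pgam1 at -3.42 and -3.39. Mitochondrially encoded genes had a median of 0.34, with mt-Nd2 at 0.87 and mt-Nd5 at -1.59, 2 of 13 being lower. In pDC minus SiglecH+Ly6C- pre-DC, 35 of 72 mitochondrial ribosomal, 6 of 12 tricarboxylic acid cycle and 7 of 13 glycolytic genes were lower, 1 glycolytic gene being higher, against 21.7% of all genes lower. The medians there were -0.98 for the mitochondrial ribosome, -1.01 for the tricarboxylic acid cycle, -1.19 for glycolysis and -0.41 for all genes. In SiglecH+Ly6C- minus SiglecH-Ly6C- pre-DC glycolysis had a median of -0.91, with 6 of 13 lower and 0 higher, while 3.88% of all genes were lower. The tricarboxylic acid cycle had a median of 0.48 there, and all genes had 0.28. In CLP minus GMP the glycolytic median was -3.20 and 15 of 16 were lower, against a median of -1.22 for all genes, and 72 of 77 mitochondrial ribosomal genes were lower (median -2.20), where 58.7% of all genes were lower. In pre-pro-B cells minus CLP the mitochondrial ribosomal list was even, with 13 higher and 13 lower of 75, and a median of -0.01 against 0.14 for all genes. Between the Ly6C+ gates it had 1 higher and 3 lower of 68, with a median of -0.05 against 0.13 for all genes.

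Among regulators of mitochondrial biogenesis, Ppargc1a, the coactivator known for driving this programme, was nearly absent. Its highest gate mean was in pre-pro-B cells at 6.92 TPM, followed by SiglecH+Ly6C- pre-DC at 4.03 and CLP at 2.41 TPM, and it was at or below 0.064 TPM elsewhere. These means rest on few cells, since 10%, 2.86% and 6.25% of the 3 gates held it at 1 TPM or more. Esrra was highest in SiglecH-Ly6C- pre-DC at 27.9 TPM, where 11.4% of cells held it at 1 TPM or more, and was listed at 0 in pre-pro-B cells and CLP. Tfam, the packaging factor of mitochondrial DNA, had its highest mean TPM in pDC at 157 TPM, where 33.3% of cells held it at 1 TPM or more, but on the mean log2(TPM + 1) scale it was highest in GMP at 4.41, against 1.92 in pDC, and was detected in 76.5% of GMP. Tfb2m, a mitochondrial transcription factor, likewise had its highest mean TPM in pDC at 187 TPM, with 18.5% of cells detected, and its highest mean log2(TPM + 1) in GMP at 3.005, against 1.18 in pDC. Myc had its highest mean TPM in LMPP at 171.5 TPM, followed by GMP at 160.8 TPM, and was 0.715 TPM in pDC. On the mean log2(TPM + 1) scale it was highest in GMP at 6.66, then cMoP at 5.21, CLP at 4.22 and LMPP at 3.95. It was detected in 96.1% of GMP and 60% of LMPP.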

How the data were processed

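Cells were assigned to the 12 gates by their labelled phenotype. The deposited table holds TPM for each gene symbol, which the authors estimated using RSEM (version 1.2.19) against GRCm38, per the submitters' processing notes. The sources used here do not give the aligner or annotation. Only cells with good cDNA were sequenced, per the labels' protocols. Totals were 997617 to 1000000 TPM per cell, so a larger share of some genes lowers that of others.

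Members were summed per cell. Gates were compared by differences of mean log2(TPM + 1), which understate the change of low genes. No p-value is given, since cells are not replicates. Genes named were drawn from the isoform pairs, the 3 highest and 2 lowest members of each complex, the 5 furthest in each direction of a comparison, the 10 genes most like Cox6a2 and the furthest list genes; those named for evenness over gates and the regulators were chosen after their values were seen. The values of 1 member that this rule would name are not reported here, though it counts among the members. Members, lists and comparisons were chosen with earlier results of these data known. No doublet caller was run. Shares have Clopper-Pearson 95% intervals, and 3 counts bound a share of 0. Other settings tried were pseudocounts of 0.1 and 10, log2 of mean TPM, size factors from 395 genes, TPM without mitochondrial genes, no gene filter, cells of 3000 to 6000 genes, single runs, and differences relative to the median gene. Lengths and coordinates are GENCODE's (M21). Scripts used Python 3.11.15 with numpy 2.4.6, pandas 2.3.3 and scipy 1.17.1, with figures from matplotlib 3.10.9, and were tested on simulated data.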

Additional observations from a re-analysis of the deposited data

How the results depend on the processing

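The counts of members called depended most on how cells were averaged. On the log2 of the mean TPM, the counts of higher and lower members were 3 and 4 for CLP minus GMP, 2 and 4 for pre-pro-B minus CLP, 5 and 10 for pDC minus CDP, 1 and 2 for SiglecH+Ly6C- minus SiglecH-Ly6C- pre-DC and 2 and 3 for SiglecH+Ly6C+ minus SiglecH-Ly6C+ pre-DC, and 10 were lower for pDC minus SiglecH+Ly6C- pre-DC. Lower calls then outnumbered higher ones for pre-pro-B minus CLP and SiglecH+Ly6C- minus SiglecH-Ly6C- pre-DC, against 10 and 8 and 9 and 0 as reported. On the log2 of the mean TPM 14.98% of all genes were higher and 13.8% lower for SiglecH+Ly6C+ minus SiglecH-Ly6C+ pre-DC. The shares for the other comparisons are given with them above. With a pseudocount of 10, 24 members were lower for CLP minus GMP, 4 higher and 5 lower for pre-pro-B minus CLP, 30 lower for pDC minus CDP, 2 higher for SiglecH+Ly6C- minus SiglecH-Ly6C- pre-DC, 0 lower for SiglecH+Ly6C+ minus SiglecH-Ly6C+ pre-DC and 32 lower for pDC minus SiglecH+Ly6C- pre-DC. The matching shares of all genes were 22.7% lower, 5.71% higher and 3.35% lower, 10.03% lower, 3.69% higher, 1.37% lower and 6.84% lower. With a pseudocount of 0.1, 16 were higher for pre-pro-B minus CLP, 14 higher and 1 lower for SiglecH+Ly6C- minus SiglecH-Ly6C- pre-DC and 7 higher and 10 lower for SiglecH+Ly6C+ minus SiglecH-Ly6C+ pre-DC. Of all genes 26.95% were higher, 27.9% higher and 6.63% lower, and 16.7% higher and 11.1% lower in these comparisons. Relative to the median of all genes, an alternative chosen after seeing the data, 7 were higher and 8 lower for CLP minus GMP and 8 lower for SiglecH+Ly6C+ minus SiglecH-Ly6C+ pre-DC. In the run shared by SiglecH+Ly6C- and SiglecH-Ly6C- pre-DC, 18 were higher and 3 lower. The Cox6a2 value of cMoP minus GMP was -5.03 with a pseudocount of 0.1 and -5.59 on the log2 of the mean TPM, and that of SiglecH+Ly6C+ pre-DC, set against cells all listed at 0, was 7.78 on the log2 of the mean TPM. Size factors put the summed level of pDC at 25814 TPM, now above CDP at 16814.5 TPM and SiglecH+Ly6C- pre-DC at 23086 TPM, and turned the order of the Ly6C+ gates. With means over cells pDC, at 18179 TPM, were also above CDP at 18036 TPM. The cause of these shifts was not tested. Each main value was set against several alternatives. Of these alternative values, 31 moved from the main value and 213 did not. A level, pair share or Cox6a2 difference was counted as moved only where it shifted by about the SD over cells, a wide margin, and a count of members where it changed by more than a fixed factor. Counts of members made up 27 of the moved values and 89 of the others. Shares of cells with Cox6a2, left out of this tally, moved at 10 of the higher thresholds and did not at 14. No paired analysis was possible because cell numbers only name cells and every gate is 1 sample. CLP, pre-pro-B cells and GMP fill 1 run, so their single-run values are those given, and no shared run exists for cMoP and GMP, for the Ly6C+ gates, or for pDC and SiglecH+Ly6C- pre-DC. Depth is unknown, so no level could be weighed by its counts.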
